A study of Mus musculus with 6 samples.

Results

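AP-1 is a family of transcription factors built as dimers of Fos proteins (Fos, Fosb, Fosl1, Fosl2) and Jun proteins (Jun, Junb, Jund), and the genes examined here are these together with Egr1, Atf3 and Ier2, which are transcribed in the same early response. The members were the gene probes whose name in the scanner output is 1 of these 10 symbols, which gave 10 genes with 16 probes among 37074 gene names and 56605 gene probes on the array. The tissue, labelled colon tumor and described in the study's methods as colon that bears tumors, came from 6 male C57BL/6 mice, bought at 6 to 8 weeks of age, all of which had received azoxymethane (AOM, a carcinogen that acts on the colon, 10 μg/g) by injection and dextran sodium sulfate (DSS, which injures the colon lining, 2% in drinking water). Of these mice, 3 were given RG@M-γ-CD by mouth and 3 were given PBS. RG@M-γ-CD is regorafenib (RG), a kinase inhibitor, held in a γ-cyclodextrin carrying mannose, and was dosed at 30 μg/g, which contains 10 μg/g of RG, over 21 days of treatment with 14 days of observation after it. The comparison asked how gene expression in this tissue differed after RG@M-γ-CD, with 1 array per mouse and whole pieces of tissue on each. In such bulk samples, fewer cells of a type and less RNA per cell cannot be told apart.

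Fos and Jun proteins bind DNA through a basic region and pair through a leucine zipper. Growth factors, stress, injury and inflammation switch on several of their genes, but not all, within minutes through the MAP kinases ERK, JNK and p38. The messages of these early genes are short lived. In the gut epithelium these factors are known for their part in proliferation, wound repair and tumor growth downstream of receptor tyrosine kinases. Egr1 is a zinc finger factor induced by the same kinases, Atf3 is a stress-induced partner of Jun proteins, and Ier2 is a small nuclear protein of the same early wave.

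Early induction of such genes is known to run in part through short promoter elements. The stretch just before the transcription start is therefore shown for the 7 members that the RefSeq promoter table for GRCm38.p6 holds. Egr1, Fosl1 and Ier2 were not in that table. Each sequence is the 100 bases before the start, written 5′ to 3′ on the strand of the gene, and capitals mark matches to the motifs searched:
Fos, chr12:85473790-85473889, plus strand: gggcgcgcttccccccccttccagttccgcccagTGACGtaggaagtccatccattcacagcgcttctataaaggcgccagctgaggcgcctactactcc
Fosb, chr7:19310046-19310145, minus strand: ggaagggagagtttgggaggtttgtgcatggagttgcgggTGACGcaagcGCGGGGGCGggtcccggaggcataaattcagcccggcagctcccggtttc
Fosl2, chr5:32136372-32136471, plus strand: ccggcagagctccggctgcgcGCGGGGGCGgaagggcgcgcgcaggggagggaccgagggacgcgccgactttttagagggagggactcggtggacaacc
Jun, chr4:95052223-95052322, minus strand: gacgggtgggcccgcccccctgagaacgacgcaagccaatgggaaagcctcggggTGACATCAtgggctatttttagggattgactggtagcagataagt
Junb, chr8:84978749-84978848, minus strand: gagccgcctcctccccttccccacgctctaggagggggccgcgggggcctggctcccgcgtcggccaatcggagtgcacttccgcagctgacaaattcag
Jund, chr8:70697639-70697738, plus strand: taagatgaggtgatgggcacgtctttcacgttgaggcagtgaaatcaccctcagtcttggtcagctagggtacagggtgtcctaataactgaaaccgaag
Atf3, chr1:191183334-191183433, minus strand: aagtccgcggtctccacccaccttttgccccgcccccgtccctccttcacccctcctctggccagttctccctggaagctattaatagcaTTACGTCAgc
Motifs were searched on both strands over the 250 bases before each start. The letters TGACG, the core of the cyclic AMP response element, were present in 4 of 7 members and in 17.8% of all 32851 promoters of the table. Fos carried them at bases -129 and -66, Fosb at -60, Junb at -106, outside the stretch shown, and Atf3 on the opposite strand at -7, inside the longer match TTACGTCA at -10. TTACGTCA itself was found in 0.447% of all promoters. Jun held TGACATCA at -45, a variant present in 2.93% of promoters. The Egr letters GCGGGGGCG stood at -50 in Fosb and at -79 in Fosl2, 2 of 7 members, against 2.57% of promoters. The classical AP-1 element TGACTCA (4.46% of promoters), the full element TGACGTCA (1.55%), in which TGACG also lies, and the CArG box of serum response factor (1.47%) were matched in 0 of 7 members within this window. A match is a run of letters and was not read as a bound site.

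Levels are log2 intensities from which the 75th percentile of the array, taken over its gene probes, was subtracted, so that 0 marks that percentile. They are listed in the order replicate 1, 2, 3. A difference is the RG@M-γ-CD mean minus the PBS mean on this log2 scale, from limma across 19087 genes. Each probe has its own brightness, and levels were compared between arrays for 1 probe only, not between probes. On the 6 arrays, 28103 to 31219 gene probes (49.6% to 55.2%) were well above background and 0 gene spots were saturated. All 13 colon epithelium markers examined were well above background on all 6 arrays. RG@M-γ-CD replicate 2 stood somewhat apart, with correlations of 0.941 to 0.977 to the other arrays across genes, which are not independent replicates, whereas the other pairs of arrays gave 0.973 to 0.992. Members are therefore also given from the 5 arrays that leave it out.

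No member was called different between the groups. At an adjusted p under 0.05 in limma 0 of 10 members passed, beside 0% of the 19087 genes tested. At an unadjusted p under 0.05 there were also 0 of 10 members, against 419 of 19087 genes. Of the members, 8 had a higher mean with RG@M-γ-CD and 2 a lower mean, and 47.2% of all genes tested had a higher one. The median difference of the members was 0.51, beside -0.01 over all genes. The intervals reached as high as 3.56 for Fosb and as low as -1.33 for Fosl1, so sizeable differences in either direction remained within the error at 3 mice a group. The feature that the members shared was another one: 8 of 10 had their highest level on a single array, RG@M-γ-CD replicate 2.

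**Figure D1:**
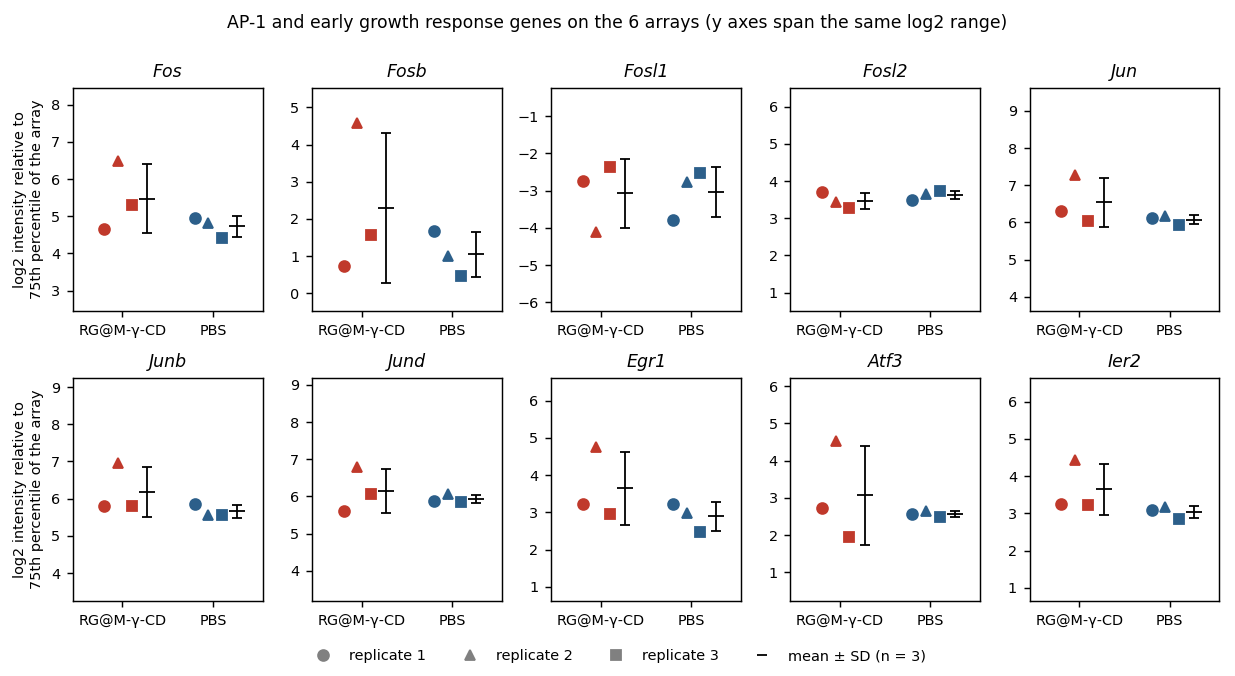
Levels of the 10 members (log2 intensity relative to the 75th percentile of the array, y axes spanning the same range) on 3 RG@M-γ-CD arrays (red) and 3 PBS arrays (blue), with marker shapes for replicates and bars for mean ± SD. The triangle of RG@M-γ-CD replicate 2 is the highest point for 8 of the 10 genes, while Fosl2 stays within 0.46 over all 6 arrays and Fosl1 is lowest on that array.

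Fos, the founding member of the family, had levels of 4.65, 6.47 and 5.29 on the RG@M-γ-CD arrays and 4.95, 4.81 and 4.42 on the PBS arrays (probe A_55_P2910184, mm9 chr12:86818118-86818177). Replicate 2 of RG@M-γ-CD was the highest and lay 1.18 above the next array, while RG@M-γ-CD replicate 1 lay below PBS replicates 1 and 2, so the groups overlapped. The means were 5.47 ± 0.93 and 4.73 ± 0.28 (SD, n = 3 each). The difference was 0.74 (SE 0.46, 95% confidence interval -0.36 to 1.85), with an adjusted p of 1 in limma. With RG@M-γ-CD replicate 2 left out the difference came to 0.24.

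Fosb, a close relative of Fos with short-lived messages, varied most of the members. Its levels were 0.75, 4.57 and 1.56 with RG@M-γ-CD and 1.69, 0.995 and 0.47 with PBS (probe A_55_P2113051, mm9 chr7:19888168-19888227). RG@M-γ-CD replicate 2 exceeded the next highest array, PBS replicate 1, by 2.88, which is 7.36-fold in intensity, and the 5 other arrays lay within 1.22 of each other. The range over the 6 arrays, 4.10, was wider than that of 99.5% of genes tested. The difference of 1.24 (SE 0.96, interval -1.08 to 3.56), adjusted p of 1 in limma, was 0.10 once RG@M-γ-CD replicate 2 was left out. A second Fosb probe, nearer the start of the transcript (A_55_P2744102), was well above background only on RG@M-γ-CD replicate 2, at -2.18, with -6.92 to -5.20 on the other arrays, and was not tested.

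Fosl1, also known as Fra-1 and associated with invasive tumors, ran the other way on that array. It was a dim probe (A_51_P308796, mm9 chr19:5455496-5455555) with levels of -2.74, -4.11 and -2.37 with RG@M-γ-CD and -3.78, -2.78 and -2.53 with PBS. RG@M-γ-CD replicate 2 was the lowest of the 6, with PBS replicate 1 next. The difference was -0.05 (SE 0.53, interval -1.33 to 1.23), and its sign turned to 0.47 without RG@M-γ-CD replicate 2 and to 0.71 with the row of the slide as a block.

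Fosl2, known as Fra-2, was the steadiest member. Its brighter probe (A_55_P2803815, mm9 chr5:32460076-32460135) gave 3.70, 3.45 and 3.27 with RG@M-γ-CD and 3.49, 3.65 and 3.73 with PBS, a range of 0.46. The groups overlapped and the difference was -0.15 (SE 0.17, interval -0.57 to 0.27). Its second probe (A_51_P507242), well above background on 1 RG@M-γ-CD array and all 3 PBS arrays, gave -4.48, -2.75 and -4.19 against -3.09, -3.45 and -3.58. The 2 probes disagreed in their order of arrays, since the dim one was highest on RG@M-γ-CD replicate 2.

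Jun, the partner that binds DNA with any Fos protein or with itself, had levels of 6.30, 7.29 and 6.04 with RG@M-γ-CD and 6.11, 6.17 and 5.94 with PBS (probe A_55_P2158990, mm9 chr4:94716928-94716987). Apart from RG@M-γ-CD replicate 2, which lay 0.99 above the next array, the 5 other levels fell within 0.36. The difference was 0.47 (SE 0.33, interval -0.32 to 1.27) and was 0.10 without that array.

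Junb, which often restrains the growth effects of Jun, was likewise highest on RG@M-γ-CD replicate 2 and lowest on PBS replicate 3 on its brightest probe (A_51_P159194, mm9 chr8:87500843-87500902), at 5.81, 6.95 and 5.79 with RG@M-γ-CD and 5.85, 5.57 and 5.55 with PBS. RG@M-γ-CD replicate 2 was 2.15-fold above the next array in intensity, while the other 5 levels lay within 0.30. The difference was 0.53 (SE 0.34, interval -0.29 to 1.34), or 0.14 without replicate 2. A second Junb probe (A_55_P2011106) gave -0.87, 0.10 and -1.04 against -0.99, -1.30 and -1.45, again highest on RG@M-γ-CD replicate 2. A further probe (A_55_P2731021) was well above background on 0 of the 6 arrays.

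Jund, the member that most tissues express at rest, had levels of 5.60, 6.78 and 6.06 with RG@M-γ-CD and 5.89, 6.06 and 5.84 with PBS (probe A_55_P2892246, mm9 chr8:73224302-73224361). RG@M-γ-CD replicate 2 was the highest by 0.72 and RG@M-γ-CD replicate 1 the lowest, so the PBS arrays lay between arrays of the treated group. The difference of 0.22 (SE 0.31, interval -0.52 to 0.96) turned to -0.10 without RG@M-γ-CD replicate 2. Its second probe (A_51_P357744) gave 5.69, 6.42 and 5.89 against 5.63, 5.85 and 5.69 and a difference of 0.28.

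Egr1, the zinc finger factor, had levels of 3.22, 4.77 and 2.95 with RG@M-γ-CD and 3.21, 2.98 and 2.48 with PBS on its single probe (A_51_P367866). RG@M-γ-CD replicate 2 lay 1.55 above the next array, 2.93-fold in intensity, and PBS replicate 3 was the lowest. The difference was 0.75 (SE 0.50, interval -0.44 to 1.95), with an adjusted p of 1 in limma, and it was 0.19 without RG@M-γ-CD replicate 2.

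Atf3, which stress and injury induce, gave 2.73, 4.52 and 1.94 with RG@M-γ-CD and 2.58, 2.66 and 2.50 with PBS (probe A_52_P452689, mm9 chr1:192994547-192994606). The RG@M-γ-CD arrays included both the highest level, 1.79 above the next array, and the lowest, and the PBS arrays had an SD of 0.08 (n = 3). The difference of 0.49 (SE 0.62, interval -0.997 to 1.97) turned to -0.24 without RG@M-γ-CD replicate 2.

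Ier2, the small nuclear protein, was the 1 member of 10 whose groups did not overlap, beside 4.57% of genes tested. Its levels were 3.26, 4.43 and 3.24 with RG@M-γ-CD and 3.10, 3.16 and 2.86 with PBS (probe A_51_P481325, mm9 chr8:87185211-87185245). The gap between the groups, from 3.24 to 3.16, was narrow, and under quantile normalization 0 of 10 members were free of overlap. The difference was 0.60 (SE 0.35, interval -0.23 to 1.43), with an adjusted p of 1 in limma. It came to 0.21 once RG@M-γ-CD replicate 2 was left out, still with no overlap, which in that fit also held for 2795 of 19087 genes tested. The second Ier2 probe (A_52_P554555) gave -2.70, 0.17 and -2.60 against -1.89, -2.96 and -3.63, also highest on that array but with overlapping groups.

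**Figure D2:**
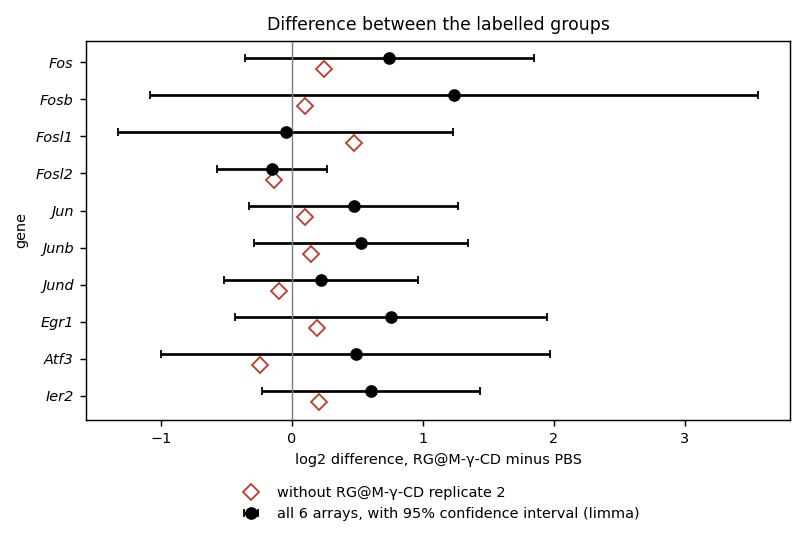
Difference between the labelled groups for each member (log2, RG@M-γ-CD minus PBS) from all 6 arrays, with its 95% confidence interval from limma, and the value without RG@M-γ-CD replicate 2 (diamonds). All 10 intervals include 0, and the 5-array values run from -0.24 to 0.47.

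The 8 members that were highest on RG@M-γ-CD replicate 2, beside 20.6% of all genes tested, were Fos, Fosb, Jun, Junb, Jund, Egr1, Atf3 and Ier2. All 8 exceeded the next highest array by over 0.5 on the log2 scale, a step chosen after the values were seen, and 4.30% of genes tested did so. The median over the 10 members of the level on that array minus the mean of the other 5 was 1.27, against -0.12 over all genes. All 5 further probes that were well above background on at least 1 array also had their highest level there. They measure genes already listed, on the same arrays, and so add no independent evidence. The second Fosb probe was well above background on that array only, so its place was set by the filter. At the other end, 6 of 10 members (Fos, Fosb, Jun, Junb, Egr1 and Ier2) were lowest on PBS replicate 3, beside 7.29% of genes. The spread within the RG@M-γ-CD group, an SD of 0.21 for Fosl2 to 2.01 for Fosb, was wider than that within the PBS group, 0.08 for Atf3 to 0.67 for Fosl1, for each of the 10 members. The share of all genes with this order was not computed. Across all genes the RG@M-γ-CD arrays were also less alike, with correlations of 0.941 to 0.977 against 0.981 to 0.992 among PBS arrays. The wider spread is therefore not shown to be particular to the members. RG@M-γ-CD replicates 1 and 3 did not share the high levels: the median of the members, centred on each gene's mean, was -0.09 and -0.12 there and 1.06 on replicate 2.

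Leaving out RG@M-γ-CD replicate 2 reduced the median difference of the members from 0.51 to 0.12, with 7 of 10 higher with RG@M-γ-CD, beside 59.4% of all genes. Omission of RG@M-γ-CD replicate 1 shifted it the other way. The median was then 0.68, and 4 of 10 members had groups that did not overlap, beside 25.2% of genes with 2 arrays against 3. Of these, Fos, Jund and Ier2 were higher with RG@M-γ-CD and Fosl2 was lower, at -0.26. Fos came to a difference of 1.16 (SE 0.38) with an adjusted p of 0.285 in limma. In that fit 0 of 10 members passed the threshold, while 0.880% of genes tested, 168 in all, did. With RG@M-γ-CD replicate 3 omitted, 4 of 10 members (Jun, Egr1, Atf3 and Ier2) did not overlap, beside 7.48% of genes, and with PBS replicate 1 omitted 2 of 10 (Junb and Ier2) did not, beside 14.7% of genes.

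A heat map among the study's materials orders the arrays differently from their labels. In that order RG@M-γ-CD replicates 2 and 3 and PBS replicate 1 form 1 side and RG@M-γ-CD replicate 1 and PBS replicates 2 and 3 the other, and neither was named as treated here. Between these sides 0 of 10 members passed the threshold, beside 0.0259% of 19295 genes tested, and 3 members did not overlap, beside 25.5% of genes. They were Fos with a difference of 0.95, Fosb with 1.87 and Fosl2 with -0.29, and the smallest adjusted p of a member was 0.301 in limma. The median of all genes stood at -0.12 in this arrangement, and the differences given here were not corrected for it.

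The array positions on the slide offered a further check, because the 3 RG@M-γ-CD arrays and PBS replicate 1 lay in row 1 and PBS replicates 2 and 3 in row 2. Within row 1 alone, where PBS is a single array and its spread is taken from the RG@M-γ-CD arrays, the median difference of the members was 0.46 and that of all genes 0.10. Row and group could be separated only through PBS replicate 1. In that fit Fosl2, at -0.02, was the 1 member with a lower level.

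The wider early response was examined through 32 other immediate-early genes, of which 30 were tested and Egr4 and Npas4 were too dim. None passed the adjusted threshold in limma. Of the 30, 18 had a higher and 12 a lower mean with RG@M-γ-CD, their median difference was 0.13, and at an unadjusted p under 0.05 there were 3 higher and 1 lower. On RG@M-γ-CD replicate 2, 17 of 30 had their highest level, 9 of them by over 0.5.

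These 9 were headed by Btg2, an antiproliferative gene, and by the nuclear receptor Nr4a1, which read 5.50 on that array and 3.33 to 3.77 on the others. Zfp36, whose product hastens the decay of inflammatory messages, lay 1.60 above the next array there, Arc 1.55, Klf2 1.35 and Dusp1, a phosphatase that switches off MAP kinases, 1.25. Csrnp1, Egr2 and Klf6 followed with 0.76, 0.70 and 0.52. Not all immediate-early genes took this course: Ier3, Ier5l and Myc lay 1.48, 1.28 and 1.20 below the highest array on RG@M-γ-CD replicate 2.

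**Figure D3:**
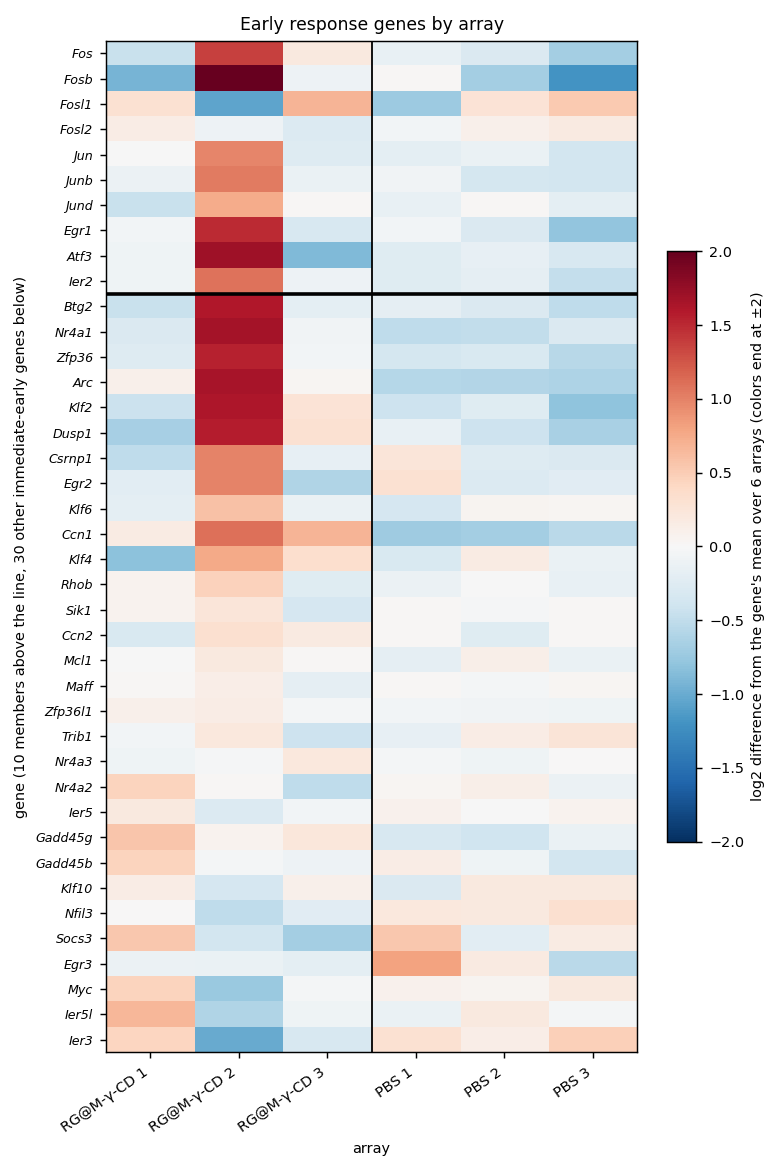
Level of each gene on each array as the log2 difference from its mean over the 6 arrays (color, ending at ±2), for the 10 members above the line and 30 other immediate-early genes below it ordered by how far RG@M-γ-CD replicate 2 exceeded the next highest array. The column of RG@M-γ-CD replicate 2 is red for 8 members and for the upper part of the other genes, and blue for Fosl1, Myc, Ier5l and Ier3.

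Ccn1, a matrix-bound protein of wound repair and angiogenesis, had the smallest unadjusted p of the list. Its levels were 2.30, 3.24 and 2.81 with RG@M-γ-CD and 1.43, 1.47 and 1.60 with PBS, so all 3 treated arrays lay above all PBS arrays. The difference was 1.29 (SE 0.25) with an adjusted p of 1 in limma. In the fit that omits RG@M-γ-CD replicate 1 its difference was 1.53 (SE 0.20) with an adjusted p of 0.0391 in limma. It was the 1 gene of 106 tested in the 4 lists of the pathway to pass there, near the 0.880% of all genes tested. In the same fit 6 of 8 smooth muscle markers and 1 of 8 fibroblast markers passed as higher, and 2 of 8 neutrophil markers as lower.

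Gadd45g, a growth arrest gene, had levels of 4.93, 4.46 and 4.61 against 4.07, 3.98 and 4.26, without overlap, and a difference of 0.56 (SE 0.18). Arc, known from neurons, gave -0.72, 0.84 and -0.78 against -1.39, -1.40 and -1.44, also without overlap, and a difference of 1.19 (SE 0.44). Of the 30 genes tested in this list, 6 had groups that did not overlap in either direction, beside 4.57% of all genes tested. Ier3, a survival factor, had the lowest difference of the list, -0.60 (SE 0.36). The 1 gene lower at an unadjusted p under 0.05 was Nfil3, named here after its value was seen, at -0.48.

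Partners and relatives of AP-1 that also carry a leucine zipper were examined next. Of 23 listed genes 22 were tested, Nrl being too dim, and 0 passed the adjusted threshold in limma, with 0 higher and 1 lower at an unadjusted p under 0.05. Their median difference was -0.07, with 7 higher and 15 lower, and 4 of 22 were highest on RG@M-γ-CD replicate 2. Maf, a leucine zipper factor, had the highest difference of the list, 0.37 (SE 0.21), and Atf7, a stress-kinase target, the lowest, -1.09 (SE 0.81), with RG@M-γ-CD levels from -2.36 to 0.66.

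Kinases and factors upstream of AP-1 were divided evenly in direction. Of 30 genes tested, 15 had a higher and 15 a lower mean, the median difference was -0.002, and 0 passed at an adjusted or an unadjusted p under 0.05 in limma. Mapk10, the JNK of neurons, had the highest difference, 1.12 (SE 0.76), at -3.89, -1.71 and -1.05 against -3.74, -3.73 and -2.52. Its probe was dim, which limits this value. Mapk11, a p38 kinase, had the lowest, -0.45 (SE 0.19). On RG@M-γ-CD replicate 2, 7 of 30 were highest.

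Known target genes of AP-1 mostly had lower means with RG@M-γ-CD. Of 25 listed genes 24 were tested, Lif being too dim. Their median difference was -0.34, with 5 higher and 19 lower, and 0 passed the adjusted threshold in limma, with 0 higher and 3 lower at an unadjusted p under 0.05. On RG@M-γ-CD replicate 2, where 8 factors were highest, the targets' median level minus the mean of the other 5 arrays was -1.02, and 2 of 24 were highest. On the same array and measure neutrophil markers gave -2.08, macrophage markers -0.66 and all genes tested -0.12. The summed intensity of the neutrophil markers on that array was 81.6, within the range of the PBS arrays, 60.7 to 105. Bright probes weigh most in such a sum, and 1 of 8 of these markers was highest there. The part of these cells in the targets' levels was not tested.

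Those 3 were Mmp3, Hmox1 and Cdkn1a. Mmp3, the matrix protease stromelysin, gave -1.82, -0.91 and -1.08 against 0.24, -0.70 and -0.21, a difference of -1.04 (SE 0.33). Hmox1, which degrades heme, gave 1.47, 0.39 and 1.19 against 2.15, 1.77 and 1.81, a difference of -0.89 (SE 0.30). For Cdkn1a, the cell cycle inhibitor p21, levels of 2.91, 2.86 and 2.89 against 3.08, 3.34 and 3.37 gave a difference of -0.38 (SE 0.15). The groups did not overlap for any of these, and adjusted p was 1 in limma for each. These genes were named for a small p, so the lack of overlap adds little. Of the 24 targets, 5 had groups that did not overlap in either direction, beside 4.57% of genes tested.

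Mmp13, a collagenase, had the lowest difference of the targets, -2.03 (SE 0.96), but its groups overlapped at 0.07, -2.42 and 1.54 against 1.48, 1.32 and 2.48. Hbegf, a ligand of the EGF receptor, had the highest, 0.44 (SE 0.53), and followed the factors: it read 3.75 on RG@M-γ-CD replicate 2 and 1.77 to 2.30 on the other arrays.

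The genes whose course over the 6 arrays was most like that of Fos were found from levels centred on each gene's mean, by the smallest mean absolute difference. They were Cd36 (0.08 on the log2 scale), a fatty acid transporter, then Dusp1 (0.11), Klf2 (0.13), Mill2 (0.13) and Cnnm1 (0.13). The probes of Cd36, Mill2 and Cnnm1 were dim, with levels of -3.9 to -1.8, -3.4 to -1.9 and -4.2 to -2.2, which limits their likeness to Fos. Klf2 is a zinc finger factor well known from endothelium. Among the members Egr1 ranked 41, Ier2 74, Junb 118, Jund 196 and Jun 370 of all genes tested, Atf3 ranked 1424, and Fosb, with its wider range, 8286. Fosl2 and Fosl1 ranked 13271 and 18429. With 6 arrays and 1 of them high, this likeness mostly describes RG@M-γ-CD replicate 2.

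Cell type markers moved between arrays as well, and summed intensities (with the 75th percentile set to 1) are given beside the members for that reason. Smooth muscle markers summed to 104, 675 and 809 on the RG@M-γ-CD arrays and to 199 to 232 on the PBS arrays. All 8 had a higher mean with RG@M-γ-CD. On RG@M-γ-CD replicate 2 their median level minus the mean of the other 5 arrays was 1.47, against 1.27 for the members, and 0 of 8 were highest there. Of 6 endothelium markers 5 were highest on RG@M-γ-CD replicate 2, and their sum was 14.2 there and 7.03 to 11.9 on the other arrays. Neutrophil markers were lower in 7 of 8, with a median difference of -0.82. They summed to 102, 81.6 and 48.2 on the RG@M-γ-CD arrays and to 60.7 to 105 on the PBS arrays. On RG@M-γ-CD replicate 2 their median level minus the mean of the other 5 arrays was -2.08. Their sum, in which bright probes weigh most, lay within the PBS range. Macrophage markers were lower in 7 of 7 tested and summed to 26.3, 11.9 and 11.6 with RG@M-γ-CD, where the high array of the early genes was among the low ones, and to 19.2 to 23.9 with PBS.

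Colon epithelium markers ranged from 1180 to 1689 with RG@M-γ-CD and from 1207 to 1880 with PBS. Fibroblast sums were 90.2 to 158 and 120 to 125, and lymphocyte sums 35.4 to 48.7 and 29.4 to 39.4, the highest sum of each on RG@M-γ-CD replicate 2. Of the lymphocyte markers, however, 1 of 7 tested was highest there, their median level minus the mean of the other 5 arrays was -0.47, and 6 of 7 were lower with RG@M-γ-CD (median difference -0.53). Stratified epithelium was tested for 4 of 8 markers and exocrine pancreas for 2 of 8, and Ivl was well above background on 0 arrays. The part of these cell types in the levels of the early genes was not tested.

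**Figure D4:**
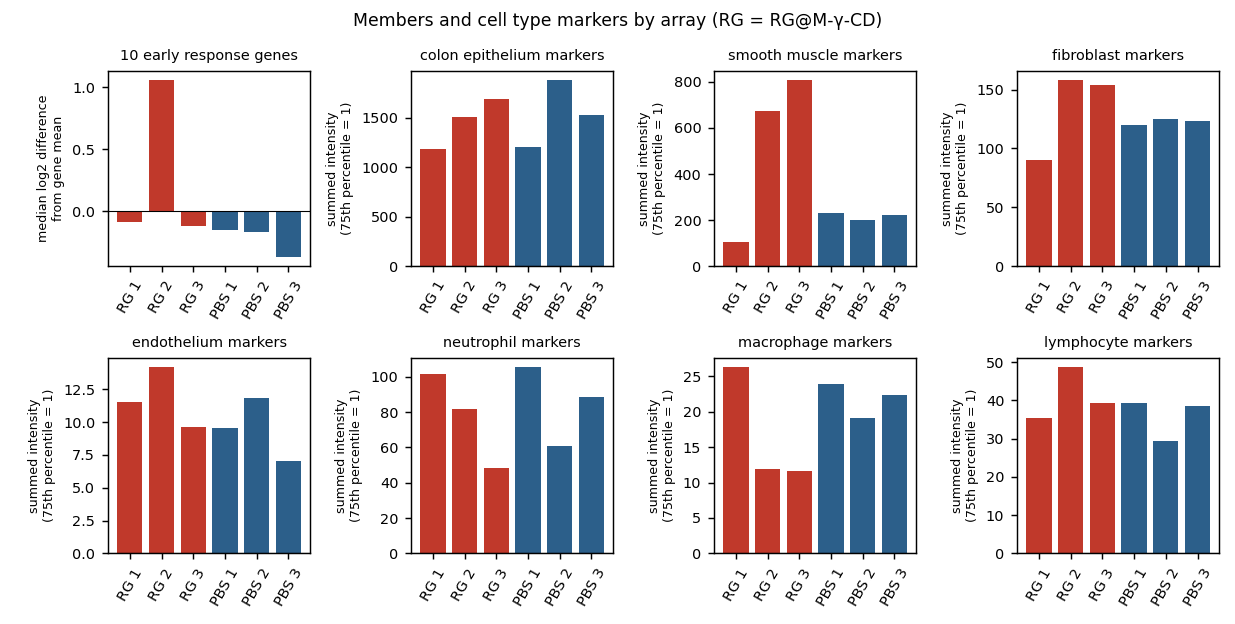
Median log2 difference from the gene mean for the 10 members, and summed intensity of the markers of 7 cell types (75th percentile = 1, bars from 0), on 3 RG@M-γ-CD arrays (red, RG) and 3 PBS arrays (blue). The members' median is 1.06 on RG@M-γ-CD replicate 2 and between -0.37 and -0.09 elsewhere, whereas smooth muscle is high on RG@M-γ-CD replicates 2 and 3.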

How the data were processed

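RNA of tumor-bearing colon from 6 mice was labelled with Cy3 and hybridized to 1-color Agilent arrays on 1 slide, read at 1 scan. Per the labels the authors extracted intensities with Agilent Feature Extraction 10.7.1.1. The deposited intensity of a spot is corrected for background and is not normalized between arrays. The log2 values that the authors deposited as a table share 1 distribution over all columns (2.04 to 18.1) and correlate with the matching array at 0.999 or above. Their normalization method is not given in the sources used here, and they served as an alternative. Their results nearly repeated those of quantile normalization, with Fos at 0.745 (SE 0.539) in both, so these 2 alternatives are not separate checks. Array precision is limited by the number of arrays, 3 a group. The replicates are separate mice.

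Analysis used R 4.3.3, and arrays were read by data.table, version 1.17.8. Control spots and 790 outlier spots were left out, log2 intensities of 1 probe were averaged, and the 75th percentile of each array was subtracted. Symbols of 32994 probes (58.3%) were updated through their accession. A gene was represented by the brightest of its probes that passed a filter, which asked for signal well above background (in at least 0.5 of the spots) on each of the 3 arrays of 1 group or both. Of 16 member probes 14 passed. Groups were those of the labels and were compared with limma 3.58.1 (lmFit, eBayes) and Benjamini-Hochberg adjustment over all 19087 genes, at a threshold of 0.05. The procedure was tested on simulated data. Named besides the members were, in each of 4 lists of the pathway, the genes with the highest and lowest difference and up to 3 with the smallest unadjusted p under 0.05, and the 5 genes most like Fos. Of these, 1 gene is not reported here. The members and lists were chosen with earlier results of these data known. Same-numbered replicates deviated from their group means with correlations of -0.25, -0.23 and 0.14, and the numbers were not taken as pairs. Alternatives were quantile normalization, normexp with an offset of 50, the value table, other probe filters, averaging the probes of a gene, keeping outlier spots, a replicate block, slide row, the methods' t-test, the arrangement of a heat map, and each array left out.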

Additional observations from a re-analysis of the deposited data

How the results depend on the processing

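Of 180 values of single members under alternatives, 173 kept their direction and their side of the threshold and 7 changed sign. Among these, the alternatives of processing, block, test and slide row gave 108 unchanged in this sense and 2 that changed sign. Both were Fosl1, at 0.71 with slide row as a block and 0.71 in row 1 alone, which give the same estimate by construction. Many of the unchanged values could not have changed sign. The replicate block and the t-test cannot alter a difference, and the other probe filters kept the same probe of each member. The deposited value table nearly repeated quantile normalization and is not a separate check. With 1 array left out at a time, Fosl1 ranged from -0.42 to 0.47, and was above 0 without RG@M-γ-CD replicate 2 (0.47), PBS replicate 2 (0.08) or PBS replicate 3 (0.20). Jund ranged from -0.10 to 0.50 and Atf3 from -0.24 to 1.05, both below 0 without RG@M-γ-CD replicate 2. Members past the adjusted threshold were 0 under all alternatives run, in limma or, for 1 alternative, in the methods' t-test. That t-test, with Benjamini-Hochberg adjustment here, called 0 genes and had 381 at an unadjusted p under 0.05. The study's methods instead set a fold change cutoff together with an unadjusted p, so the counts are not comparable with the study's. Genes past the threshold were 5 in the arrangement of the heat map and 0 to 168 with 1 array left out, 168 without RG@M-γ-CD replicate 1. Listed genes past it were 0 to 1 in those fits. Ccn1 was the 1, of 106 listed genes tested without RG@M-γ-CD replicate 1, beside 0.880% of all genes tested. Members whose groups did not overlap, 1 as reported, were 0 with quantile normalization, with the deposited value table and with the mean of a gene's probes, 3 in the arrangement of the heat map (25.5% of genes), and 1 to 4 with 1 array left out (4 of 10 without RG@M-γ-CD replicate 1, beside 25.2% of genes, and 4 of 10 without RG@M-γ-CD replicate 3, beside 7.48%). The median difference of the members ranged from 0.12 to 0.76 with 1 array left out. The replicate block called 0 genes and 0 members, with 463 genes at an unadjusted p under 0.05. The median difference, which this block cannot alter, was 0.51. RG@M-γ-CD and PBS replicates of 1 number are not shown to be paired. Members highest on RG@M-γ-CD replicate 2, a count whose alternatives were chosen after seeing the data, were 8, and 9 with the mean of a gene's probes. The cause of these changes was not tested. Signal over background limits Fosl1 and the second probes of Fosb and Fosl2, which lie near background.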
